A study of Mus musculus with 9 samples.

Results

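Angptl4 and 9 genes that are known targets of the peroxisome proliferator-activated receptors (PPARs), or are the receptors themselves, were followed in mouse cells labelled as retinal ganglion cells (RGCs), 10 genes of 22322 in the expression table. They were taken by symbol: Angptl4, Fabp4, Fabp5, Fabp3, Plin2, Pdk4, Cpt1a, Pparg, Ppara and Ppard. The set was chosen with results of these same libraries known, namely the level of Angptl4 in aging against normal RGCs and the levels of Fabp4 and of PPAR signaling genes after USCs medium, so the values of the 10 genes are a description and carry no test.

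Bulk mRNA of 9 cultures was sequenced, 3 in each of 3 groups, all labelled as wild type. Normal RGCs were grown in high glucose medium with fetal bovine serum. Aging RGCs had received D-galactose, and the group named aging RGCs + USCs medium had also received, after D-galactose, the conditioned medium of human urine-derived stem cells (USCs). The cells were a purchased culture passaged with trypsin, and no library of aging RGCs kept in unconditioned stem cell medium was analysed here, so conditioning by USCs and a change of medium cannot be told apart.

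PPARs are nuclear receptors that bind DNA together with a retinoid X receptor (RXR) and are switched on by fatty acids. They are known for raising genes that take up, store and burn fatty acids, above all in liver, muscle and fat. Angptl4, a secreted inhibitor of lipoprotein lipase, Plin2, a coat protein of lipid droplets, Cpt1a, which passes long-chain fatty acids into mitochondria, and Pdk4, which holds back pyruvate dehydrogenase, are textbook targets. Fabp3, Fabp4 and Fabp5 encode proteins that carry fatty acids inside cells, Fabp4 being best known from fat cells and macrophages. Angptl4 is also a known target of glucocorticoids and of hypoxia.

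The libraries held 18189616 to 22342288 expected counts, estimated reads per gene. Of the 14 retinal ganglion cell markers, Pou4f2, Pou4f3, Ebf3 and Atoh7 were at 0 in all 9 libraries and only 3 had a mean over the libraries of at least 1 CPM (counts scaled to the library total), so the label was not borne out by its defining transcription factors and RGC is used here as a label. The summed level of these markers lay at 139 to 150 CPM in normal RGCs, at 99.3 to 103 CPM in aging RGCs and at 75.4 to 83.5 CPM after USCs medium. In aging against normal RGCs 3 of the 4 tested fell. After USCs medium against aging RGCs 1 of 4 fell (2 of 5 without medium replicate 3). That 1 was Nefl, which made up most of the drop in the sum. Nefl, whose reads were partly shared with other genes, averaged 63.6, 38.4 and 17.3 CPM in normal, aging and medium-treated RGCs. Rbpms and Isl1 had log2 fold changes of -0.047 and 0.128 after USCs medium, neither with an adjusted p under 0.05. Markers of other cell types also differed between the groups. The 9 fibroblast markers summed to 2135 to 2190 CPM in normal RGCs and 2366 to 2447 CPM in the aging group. With USCs medium they summed to 2147 to 2284 CPM. Most of each sum was Vim, and the other markers did not share its order. In aging against normal RGCs Vim alone of the 5 tested rose and 4 fell, with a median log2 fold change of -0.50. The 10 epithelial markers, with Esrp1 at 0, summed to 1236 to 1285 CPM with USCs medium and 1047 to 1141 CPM in the other 6 libraries. The higher sum was that of Krt8, which averaged 410, 560 and 714 CPM in normal, aging and medium-treated RGCs. Krt18 (321, 252 and 281 CPM) and Krt19 (365, 274 and 258 CPM) were highest in normal RGCs. The 9 endothelial markers, with Cldn5 and Erg at 0, summed to 19.2 to 19.7 CPM in normal RGCs, 13.1 to 15.1 CPM in the aging group and 5.84 to 6.16 CPM with USCs medium. After USCs medium 3 of 4 tested endothelial markers fell (1 of 4 without medium replicate 3), Cdh5 by 2.33 on the log2 scale. The part of these cell types in the values below was not tested. Medium replicate 3 stood apart from the other medium-treated libraries in its macrophage markers, and values without it are given where leaving it out ended a call, turned a direction or moved a count by over 1.5 times. In bulk RNA, fewer cells of a type and less RNA per cell cannot be told apart.

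Of the 10 genes, 7 passed the low-count filter, and Fabp3, Pdk4 and Ppara did not. A gene is said to have risen or fallen where its adjusted p was under 0.05, and only if it is outside the set of 10. The test was the edgeR quasi-likelihood F test with Benjamini-Hochberg adjustment over the 12145 genes tested. Of these, 23.6% were called higher and 23.0% lower in aging against normal RGCs. After USCs medium the shares were 27.1% and 26.0% against aging RGCs, and 30.6% and 29.9% against normal RGCs. These shares apply to the counts of every gene list here and are repeated beside the longer ones.

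The promoters of 7 of the 10 genes were found in RefSeq (GRCm38.p6), as 250 bases before to 50 bases after a start site. Angptl4, Fabp4 and Fabp5 have no entry there. Those of Cpt1a and Plin2 are shown because in these genes the 3 groups did not overlap, with the highest level in aging RGCs and the lowest after USCs medium, and because each holds the 6-base core AGGTCA that PPAR and RXR bind. The capitals mark that core, which in both lies on the opposite strand and so reads TGACCT. The Cpt1a window is chr19:3323051-3323350 on the plus strand and the Plin2 window chr4:86670010-86670309 on the minus strand, both written 5' to 3'.
Cpt1a: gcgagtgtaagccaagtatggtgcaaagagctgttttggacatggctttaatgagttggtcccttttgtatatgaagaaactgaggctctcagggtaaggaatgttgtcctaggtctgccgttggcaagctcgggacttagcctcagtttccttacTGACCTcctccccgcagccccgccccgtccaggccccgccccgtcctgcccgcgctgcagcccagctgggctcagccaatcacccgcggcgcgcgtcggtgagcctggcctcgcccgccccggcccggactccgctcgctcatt
Plin2: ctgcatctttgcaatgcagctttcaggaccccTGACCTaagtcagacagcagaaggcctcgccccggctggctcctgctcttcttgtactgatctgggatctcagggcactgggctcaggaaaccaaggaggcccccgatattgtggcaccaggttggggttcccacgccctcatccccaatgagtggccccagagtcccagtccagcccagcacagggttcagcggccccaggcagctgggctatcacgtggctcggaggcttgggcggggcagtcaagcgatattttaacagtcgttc

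The core began at position -94 from the start site in Cpt1a and at -218 in Plin2. AGGTCA, on either strand, is in 16.3% of all 32851 promoters of this length, so its presence is common. The full PPAR and RXR site as an exact string, AGGTCANAGGTCA, is in 0.0396% of them, so its absence is common. None of the promoters found for 7 of the 10 genes held that string, and those of Angptl4, Fabp4 and Fabp5 were not searched. Of the other letters searched on both strands, CCAAT, in 37.4% of all promoters, was in both windows, and CACGTG, in 7.15%, was in that of Plin2 alone of the pair. Of 3 Pparg promoters, 2 held the core, at -28 and -9, and those of Fabp3, Pdk4, Ppara and Ppard held none. A match is a description of letters, not of a bound site.

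Among the receptors, Ppard had the highest level. On the FPKM scale, which divides by transcript length and so allows genes to be compared, normal RGCs had 28.5 to 30.8 of Ppard, aging RGCs 22.8 to 24.8 and medium-treated RGCs 21.4 to 25.1. Pparg, the receptor known for building fat cells, was 3.78 to 5.01, 4.24 to 4.63 and 3.35 to 3.98 FPKM in the same order. Ppara, the receptor of the fasting liver, was at 0 to 0.20 FPKM. The ranges of the 3 receptors did not overlap in any group.

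**Figure D1:**
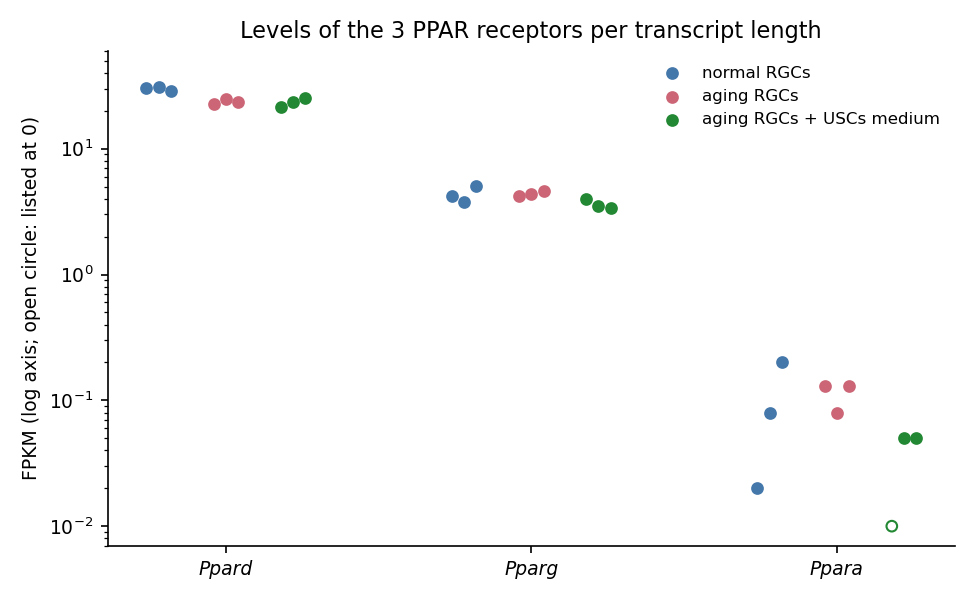
Levels of the 3 PPAR receptors in FPKM on a log axis, 1 point per library, coloured by group, with an open circle at the lower edge for a value listed at 0. Ppard lies at 21.4 to 30.8, Pparg at 3.35 to 5.01 and Ppara at or below 0.20.

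Ppard (chr17:28232700-28301474, plus strand) was 82.5, 83.3 and 79.0 CPM in normal RGCs, 62.7, 67.1 and 62.0 in aging RGCs and 61.4, 66.2 and 65.8 after USCs medium. All 3 normal libraries lay above the other 6, and the aging and medium-treated libraries overlapped. The log2 fold change of Ppard was -0.35 ± 0.048 (SE, n = 3 per group) in aging against normal RGCs and 0.01 ± 0.049 in medium-treated against aging RGCs, and the sign of the second turned with the scaling used.

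Pparg (chr6:115360951-115490399, plus strand) was 8.10, 7.37 and 9.92 CPM in normal, 8.49, 8.60 and 9.37 in aging and 8.12, 7.59 and 6.86 in medium-treated RGCs. Its normal libraries spanned the aging ones, and its medium-treated libraries lay just below the aging ones. The log2 fold changes were 0.06 ± 0.13 and -0.23 ± 0.13, of which the first was -0.03 without normal replicate 2. Pparg overlaps Gm44079 on the other strand, and whether strand was used in counting is not given in the sources used here.

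Ppara (chr15:85734983-85802819, plus strand) had 1, 4 and 9 counts in normal, 5, 3 and 8 in aging and 0, 2 and 2 in medium-treated RGCs. These counts were too few to compare the groups.

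Of the 10 receptor partners and cofactors tested, 1 rose and 5 fell in aging against normal RGCs, beside 23.6% and 23.0% of all genes. After USCs medium 2 rose and 4 fell, beside 27.1% and 26.0% of all genes. Ncoa1, a coactivator, fell in aging RGCs (log2 fold change -0.52 ± 0.11, adjusted p = 0.000368). Nrip1, a corepressor of nuclear receptors, fell in aging RGCs (-0.34 ± 0.057, adjusted p = 1.65e-05) and rose after USCs medium (0.30 ± 0.058, adjusted p = 7.74e-05), when the coactivator Ncoa2 rose too (0.25 ± 0.054, adjusted p = 0.000296). Rxra, the main partner of PPARs, was 52.2 ± 2.71 CPM (SD, n = 3) in normal, 47.5 ± 0.56 in aging and 41.4 ± 0.83 in medium-treated RGCs, and Rxrg was at 0 in all libraries.

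Angptl4 (chr17:33773750-33781830, minus strand) had the largest log2 fold change of the 7 tested genes in aging against normal RGCs. It stood at 28.9, 51.6 and 35.5 CPM in normal RGCs, 119, 123 and 117 in aging RGCs and 46.2, 49.0 and 44.0 after USCs medium. Every aging library lay above all 6 others, and normal replicate 2 lay above the 3 medium-treated libraries, so the normal and medium-treated groups overlapped.

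The log2 fold change of Angptl4 was 1.64 ± 0.099 in aging against normal RGCs, the 50th highest of 12145 genes, and -1.37 ± 0.098 in medium-treated against aging RGCs, the 308th lowest. Medium-treated against normal RGCs gave 0.27 ± 0.11. Normal RGCs were also the group in which Angptl4 varied most, with a coefficient of variation of 30.1% against 2.72% in aging and 5.38% in medium-treated RGCs. On the FPKM scale the group means were 17.1, 51.0 and 18.9.

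Cpt1a (chr19:3322334-3385733, plus strand) was 117, 117 and 116 CPM in normal, 184, 177 and 184 in aging and 62.5, 58.4 and 63.7 in medium-treated RGCs. The 3 groups did not overlap, and the medium-treated libraries lay below the normal ones as well as below the aging ones. The log2 fold change was 0.64 ± 0.039 in aging against normal RGCs, -1.56 ± 0.041 in medium-treated against aging and -0.92 ± 0.042 in medium-treated against normal RGCs. Unlike Angptl4, Cpt1a hardly varied in normal RGCs, with a coefficient of variation of 0.55%.

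Plin2 (chr4:86648386-86670060, minus strand) had the same order of groups as Cpt1a. It was 134, 147 and 134 CPM in normal, 183, 172 and 179 in aging and 92.7, 98.5 and 87.9 in medium-treated RGCs, with no overlap between any groups. Its log2 fold changes were 0.37 ± 0.043, -0.93 ± 0.045 and, against normal RGCs, -0.57 ± 0.045. Plin2 had the highest level of the 10 genes per length, with group means of 80.4, 102 and 50.1 FPKM.

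Pdk4 (chr6:5483351-5496309, minus strand), the remaining target of this kind, had 1 count among the normal, 2 among the aging and 0 among the medium-treated libraries. A count of 0 over the 3 medium-treated libraries allows a level of up to 0.0487 CPM, counting error only.

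**Figure D2:**
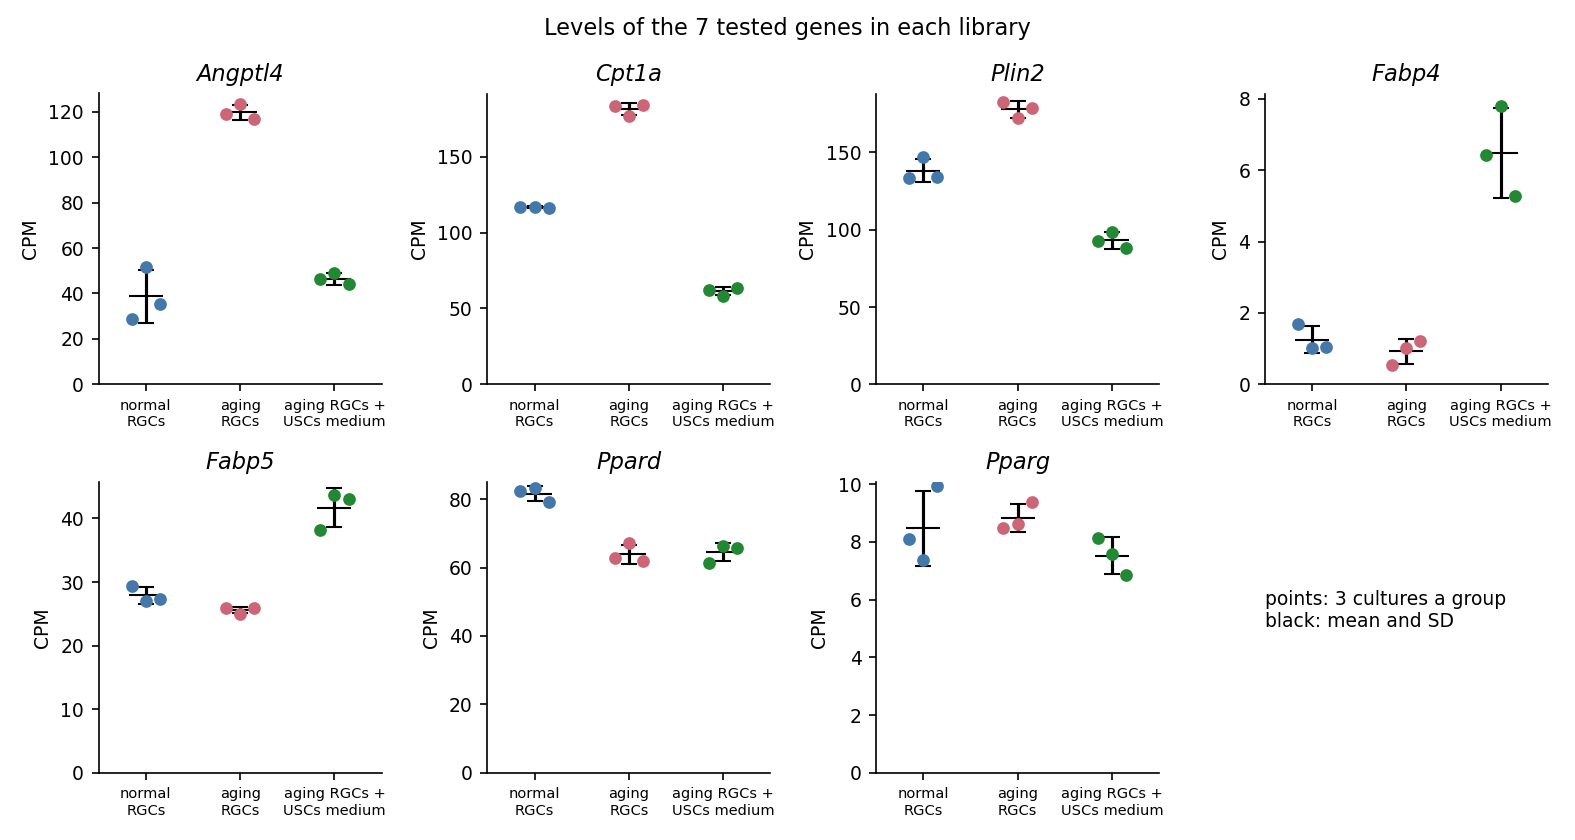
Levels in CPM of the 7 tested genes, 1 panel per gene, with 1 point per library and black lines for the mean and SD of the 3 cultures of a group; each axis starts at 0. Angptl4, Cpt1a and Plin2 are highest in aging RGCs, Fabp4 and Fabp5 are highest after USCs medium, and Ppard is highest in normal RGCs.

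Fabp4 (chr3:10204088-10208576, minus strand) was low outside the medium-treated group. It stood at 1.69, 1.02 and 1.04 CPM in normal, 0.54, 1.03 and 1.22 in aging and 6.42, 7.79 and 5.28 in medium-treated RGCs. These levels rested on 81, 54 and 385 counts summed over the 3 libraries of each group. The normal and aging libraries overlapped, and each medium-treated library was above all 6 of them.

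The log2 fold change of Fabp4 was -0.43 ± 0.32 in aging against normal RGCs and 2.79 ± 0.26 in medium-treated against aging RGCs, the 19th highest of 12145 genes. Against normal RGCs it was 2.36 ± 0.24. Its group means on the FPKM scale were 1.43, 1.05 and 6.95. Of the 8 adipocyte markers Adipoq, Plin1, Lep, Cfd and Adrb3 were at 0 throughout, and the list summed to 13.8 to 17.1 CPM in normal RGCs, against 11.7 to 15.4 CPM in the aging group and 6.37 to 7.34 CPM after USCs medium. Lipe alone of the 8 had a mean over 1 CPM and made up most of that sum.

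Fabp5 (chr3:10012548-10016607, plus strand) lies 187481 bases before Fabp4 on chromosome 3. It was 29.4, 27.0 and 27.3 CPM in normal, 25.9, 25.0 and 25.9 in aging and 38.2, 43.8 and 43.1 in medium-treated RGCs. The medium-treated libraries lay above the other 6, and the aging libraries lay just below the normal ones. Its log2 fold changes were -0.13 ± 0.069, 0.71 ± 0.067 and, against normal RGCs, 0.58 ± 0.065. Per length Fabp5 remained the more abundant of the pair, with 40.5 FPKM after USCs medium.

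Between Fabp5 and Fabp4 on the chromosome, Pmp2, a fatty acid binding protein of myelin, had 0 counts in all libraries and Fabp9 had 1 count in all. Fabp3 (chr4:130308595-130315463, plus strand), the form of heart and muscle, had 3, 0 and 3 counts in normal, 2, 5 and 4 in aging and 4, 4 and 2 in medium-treated RGCs, too few to compare. It overlaps Gm10570 and Zcchc17 on the other strand.

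**Figure D3:**
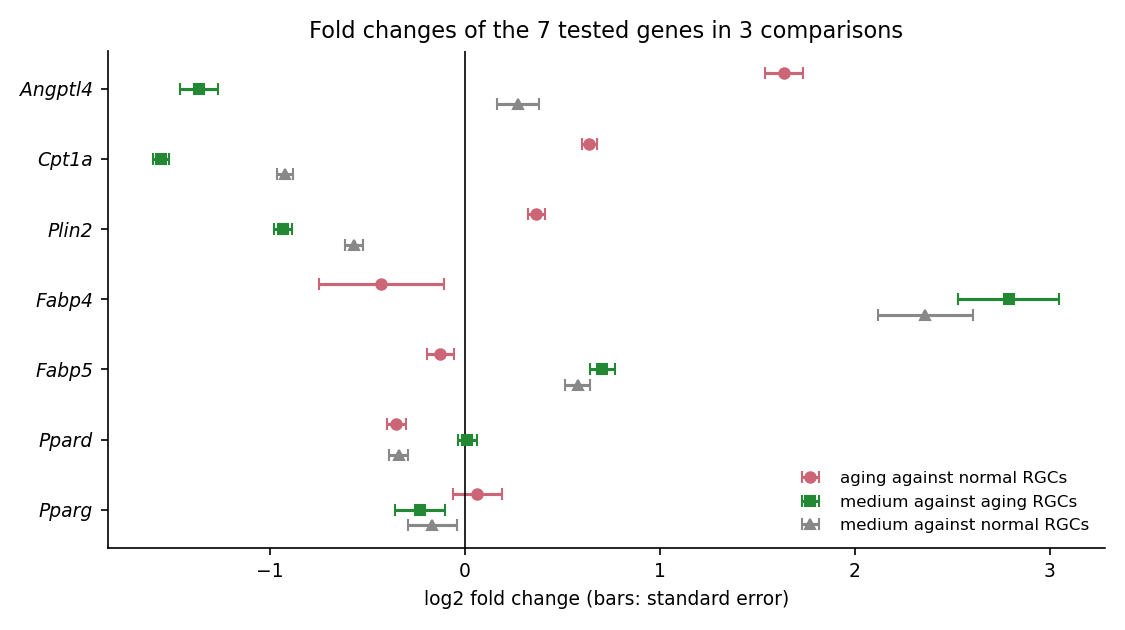
Log2 fold changes of the 7 tested genes, with bars for the standard error, in aging against normal, medium-treated against aging and medium-treated against normal RGCs; each pair of comparisons shares the 3 libraries of a group. Angptl4 is at 1.64, -1.37 and 0.27, Cpt1a at 0.64, -1.56 and -0.92, and Fabp4 at -0.43, 2.79 and 2.36.

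Counted over the 7 tested genes, 3 were past the threshold and higher in aging than in normal RGCs (Angptl4, Cpt1a and Plin2) and 1 lower (Ppard), where 23.6% of all genes tested were called higher and 23.0% lower. Angptl4 alone also had a log2 fold change of at least 1, a size that 1.09% of genes reached upwards and 1.56% downwards. The normal and aging libraries did not overlap for 5 of the 7 genes, against 53.0% of all genes. After USCs medium against aging RGCs, 2 of the 7 were past the threshold and higher and 3 lower, with 27.1% and 26.0% of all genes, and 1 and 2 of them had the larger fold change, with 1.24% and 4.21%. The groups did not overlap for 6 of the 7, against 59.8% of all genes. In medium-treated against normal RGCs the counts were 3 higher and 3 lower (30.6% and 29.9% of all genes), 1 and 0 with the larger fold change (1.47% and 5.24%), and 5 without overlap (63.8%). Since the genes were chosen on these contrasts, nothing is read from these counts. Without scaling by TMM, 35.8% of all calls after USCs medium against aging RGCs were higher, where it was 51.1% with it.

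The comparisons with aging RGCs share the 3 aging libraries, and the values of each are given on their own. The wider pathway was followed with 127 other genes in 11 lists by role, of which 91 were tested and 15 were at 0 in every library. In aging against normal RGCs 23 of the 91 rose and 18 fell (25.3% and 19.8%), with a median log2 fold change of 0.03 against 0.0018 over all genes. After USCs medium 22 rose and 41 fell against aging RGCs (24.2% and 45.1%), with a median of -0.12 against -0.0067 over all genes. Against normal RGCs 18 rose and 37 fell after USCs medium (19.8% and 40.7%), beside 30.6% and 29.9% of all genes. The KEGG PPAR signaling pathway of the deposited annotation, leaving out the 10 genes above, had 43 tested genes, of which 14 rose and 11 fell in aging RGCs (32.6% and 25.6%) and 11 rose and 15 fell after USCs medium (25.6% and 34.9%). The shares in aging RGCs stand beside 23.6% and 23.0% of all genes tested, and those after USCs medium against aging RGCs beside 27.1% and 26.0%. This pathway after USCs medium was among the results that led to the set, so its counts there are a description. Only 13 of the 43 genes were in none of the 11 lists. The counts of the lists after USCs medium, and the adjusted p of KEGG genes there, are therefore a description too.

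Next to Cpt1a, 21 genes of mitochondrial fatty acid oxidation were tested. In aging RGCs 4 rose and 2 fell, beside 23.6% and 23.0% of all genes. After USCs medium 2 rose and 12 fell (9.52% and 57.1%), beside 27.1% and 26.0% of all genes. The medians were 0.01 and -0.18. Acaa2, which carries out the last step of the mitochondrial cycle, was 51.8 ± 4.22 CPM in normal, 56.9 ± 3.55 in aging and 23.6 ± 0.51 in medium-treated RGCs, a log2 fold change of -1.27 ± 0.066 against aging RGCs (adjusted p = 2.59e-15). Slc25a20, the carrier that works with Cpt1a, rose in aging RGCs (0.38 ± 0.075, adjusted p = 0.00012) and fell after USCs medium (-0.97, adjusted p = 5.02e-11). Acadvl, the first dehydrogenase for very long chains, fell after USCs medium (-0.61, adjusted p = 1.13e-12), and the hydratase Echs1 moved the other way, falling in aging RGCs (-0.33 ± 0.063, adjusted p = 7.85e-05) and rising after USCs medium (0.68, adjusted p = 4.1e-10). Acadvl, the fall of Slc25a20 and the rise of Echs1 are named outside the rule for named genes, after their values were seen, and their calls after USCs medium held in all 16 alternatives.

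Of 13 peroxisomal and omega oxidation genes tested, 1 rose and 2 fell in aging RGCs, beside 23.6% and 23.0% of all genes. After USCs medium 2 rose and 5 fell, beside 27.1% and 26.0% of all genes. Abcd2, a peroxisomal fatty acid transporter, fell in aging RGCs (-1.07 ± 0.30, adjusted p = 0.00466), which without aging replicate 2 was -0.72 (adjusted p = 0.0512). Acot1, a thioesterase with about 1 CPM whose reads were partly shared with other genes, fell after USCs medium (-1.54 ± 0.48, adjusted p = 0.00851), but its adjusted p was 0.0991 without aging replicate 3 and 0.074 without medium replicate 2.

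Beside Plin2, 7 other lipid droplet genes were tested, of which 1 rose in aging RGCs and 4 fell after USCs medium. Of all genes, 23.6% were called higher in aging RGCs and 26.0% lower after USCs medium. Hilpda, a droplet protein that inhibits lipolysis, rose in aging RGCs (0.45 ± 0.088, adjusted p = 0.000107). Lipe, hormone-sensitive lipase, was 15.7 ± 1.67 CPM in normal, 13.8 ± 1.86 in aging and 6.96 ± 0.52 in medium-treated RGCs and fell after USCs medium (-0.99 ± 0.12, adjusted p = 5.99e-08), as did Dgat2, an enzyme of triglyceride synthesis (-0.81 ± 0.15, adjusted p = 3.08e-05).

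With Pdk4 near 0, the other genes of the pyruvate dehydrogenase switch were measured. Of 8 tested, 4 rose and 2 fell in aging RGCs, beside 23.6% and 23.0% of all genes. After USCs medium 3 rose and 2 fell, beside 27.1% and 26.0% of all genes. Pdk2, a kinase of the same family, was 5.81 ± 0.91 CPM in normal, 4.38 ± 0.48 in aging and 2.08 ± 0.73 in medium-treated RGCs, and fell after USCs medium (-1.07 ± 0.21, adjusted p = 0.000109). Its relatives Pdk1 and Pdk3 had higher levels. Pdk1 averaged 201, 254 and 179 CPM in normal, aging and medium-treated RGCs, and Pdk3 49.4, 57.8 and 62.7 CPM. In aging RGCs the phosphatase Pdp1 fell (-0.50 ± 0.080, adjusted p = 8.8e-06) and Pdp2 rose (0.46 ± 0.078, adjusted p = 2.14e-05).

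Of 12 genes of fatty acid uptake and activation, 5 rose and 2 fell in aging RGCs, and 3 rose and 6 fell after USCs medium, or 2 and 5 without medium replicate 3. Of 9 genes of desaturation and NADPH supply, 4 rose and 1 fell in aging RGCs, and 6 rose and 2 fell after USCs medium. For both lists the shares of all genes were 23.6% and 23.0% in aging RGCs and 27.1% and 26.0% after USCs medium. Fads2, a desaturase of polyunsaturated fatty acids, was 63.7 ± 3.95 CPM in normal, 116 ± 2.28 in aging and 143 ± 1.87 in medium-treated RGCs, so that it rose in aging RGCs (0.86 ± 0.044, adjusted p = 2.96e-15) and stood 1.17 ± 0.044 above normal RGCs after USCs medium (adjusted p = 1.42e-18). Fads1 rose in aging RGCs as well (0.45 ± 0.038, adjusted p = 1.16e-10). Acaca and Acacb make, and Mlycd breaks down, the malonyl-CoA that inhibits Cpt1a. Acaca averaged 165 CPM in aging and 193 in medium-treated RGCs and rose after USCs medium (0.23 ± 0.038, adjusted p = 8.9e-06). Acacb, at 1.91 and 1.00 CPM in the same groups, fell (-0.93 ± 0.32, adjusted p = 0.0171), as did Mlycd (-0.57 ± 0.20, adjusted p = 0.0148). With 1 library left out, their adjusted p went up to 0.0998 for Acacb, without medium replicate 1, and to 0.108 for Mlycd, without aging replicate 2, and over all alternatives that of Acacb went up to 0.122 (limma on log2(FPKM + 1)).

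**Figure D4:**
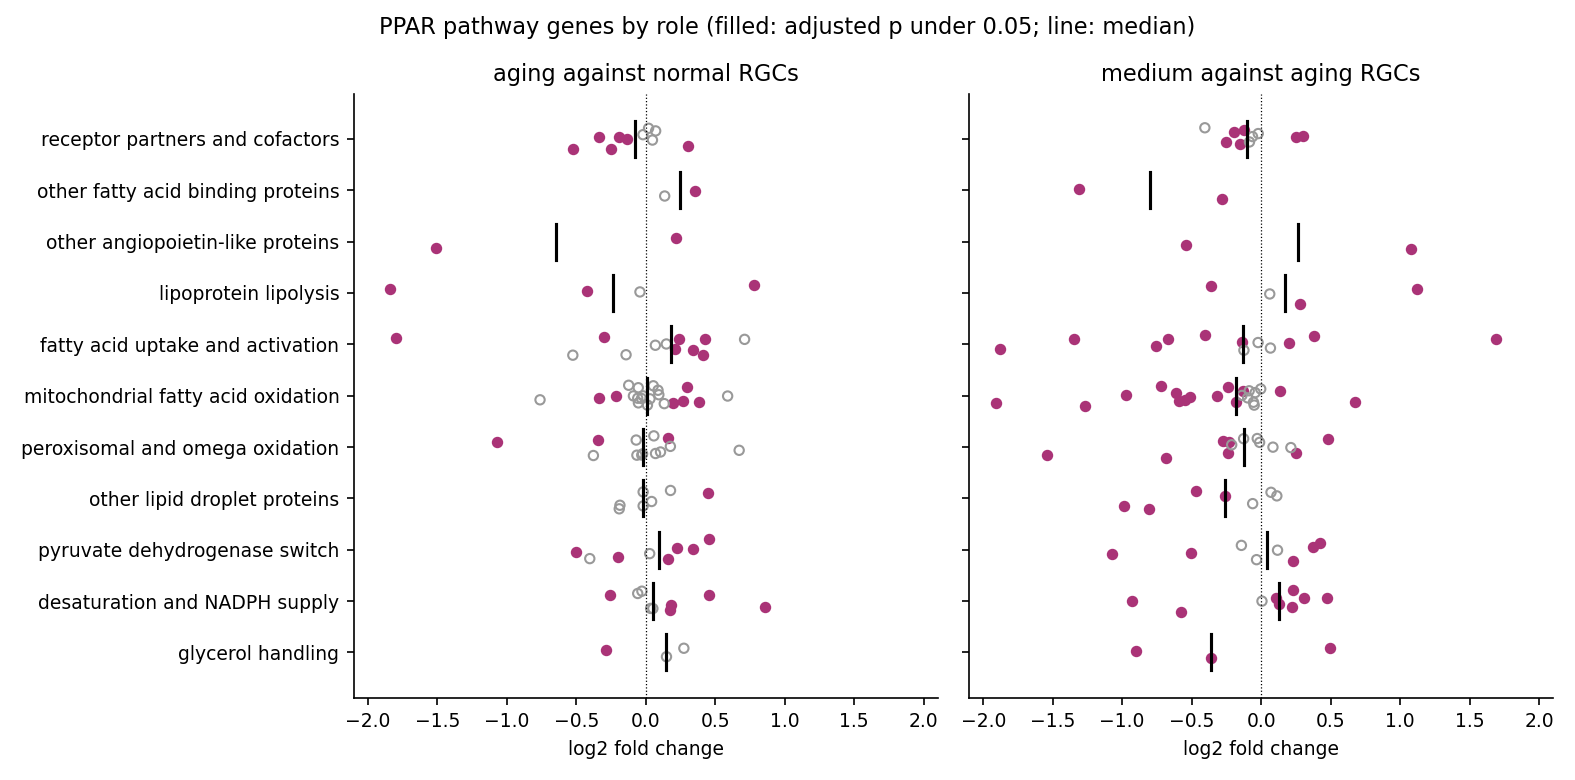
Log2 fold changes of the 91 tested pathway genes in 11 lists by role, in aging against normal RGCs and in medium-treated against aging RGCs; filled points passed an adjusted p of 0.05, open points did not, and black lines are list medians. The mitochondrial oxidation list has a median of 0.01 on the left and -0.18 on the right, and 12 of its 21 genes fell after USCs medium.

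Few relatives of the fatty acid binding and angiopoietin-like proteins were measurable. Dbi, the acyl-CoA binding protein, rose in aging RGCs (0.35 ± 0.041, adjusted p = 5.73e-08), and Fabp7, the brain form, at about 1 CPM, fell after USCs medium (-1.31 ± 0.39, adjusted p = 0.00562) with an adjusted p of 0.0544 without aging replicate 1. These were the 2 tested of 8, 1 rising in aging RGCs and both falling after USCs medium. Angptl2, an inflammatory relative of Angptl4, was lower after USCs medium than in normal RGCs (-0.33 ± 0.053, adjusted p = 5.31e-06). Angptl6 fell in aging RGCs (-1.51 ± 0.38, adjusted p = 0.00173) and rose after USCs medium (1.08 ± 0.40, adjusted p = 0.0251), a rise that had an adjusted p of 0.116, 0.0517, 0.111 and 0.0742 without aging replicates 2 and 3 and medium replicates 1 and 2. Of the 2 tested of 6 angiopoietin-like genes, 1 rose and 1 fell in each of the comparisons with aging RGCs.

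In the list of glycerol handling, 1 of 3 tested genes fell in aging RGCs, and 1 rose and 2 fell after USCs medium, or 1 and 0 without medium replicate 3. Gk, glycerol kinase, rose after USCs medium (0.49 ± 0.085, adjusted p = 1.86e-05). Gpd1, which makes glycerol 3-phosphate, fell (-0.90 ± 0.30, adjusted p = 0.0126), with an adjusted p of 0.107 without aging replicate 3 and 0.0669 without medium replicate 3. Outside the lists, the KEGG pathway gene Pck2, a mitochondrial enzyme of gluconeogenesis, fell in aging RGCs (-1.47 ± 0.046, adjusted p = 3.69e-20) and rose after USCs medium (1.11 ± 0.047, adjusted p = 2.59e-17). Hmgcs1, of cholesterol synthesis, was higher after USCs medium than in normal RGCs (1.57 ± 0.037, adjusted p = 2.1e-23).

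Medium-treated RGCs were also set against normal RGCs. Slc27a6, a fatty acid transporter under 1 CPM in all libraries, was lower (-2.41 ± 0.66, adjusted p = 0.00236), as were Pdk2 (-1.48 ± 0.20, adjusted p = 4.14e-07), Abcd2 (-1.29 ± 0.31, adjusted p = 0.000745), Lipe (-1.17 ± 0.12, adjusted p = 9.39e-10) and Acaa2 (-1.14 ± 0.066, adjusted p = 1.63e-14). Smaller falls were those of Ncoa1 (-0.55 ± 0.11, adjusted p = 0.000144), Acsbg1, an acyl-CoA synthetase (-0.34 ± 0.098, adjusted p = 0.00341), Rxra (-0.33 ± 0.054, adjusted p = 4.98e-06) and Sel1l, needed for lipase maturation (-0.15 ± 0.040, adjusted p = 0.00242). Lipg, endothelial lipase, was higher (0.42 ± 0.086, adjusted p = 0.000129). Fabp7 was lower (-1.17 ± 0.39, adjusted p = 0.0105), but not past the threshold without medium replicate 1 (adjusted p = 0.0726).

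Of the glycerol genes, Gk fell in aging against normal RGCs (-0.28 ± 0.086, adjusted p = 0.00781) with an adjusted p of 0.0694 without normal replicate 3. In medium-treated against normal RGCs Gk was higher (0.21 ± 0.082, adjusted p = 0.0299) and Gpd1 lower (-0.75 ± 0.30, adjusted p = 0.032). The call on Gk was lost in 9 of 16 alternatives, with an adjusted p of up to 0.426 (limma on log2(FPKM + 0.1)). That on Gpd1 was lost in 4 of 16, with an adjusted p of up to 0.179 without normal replicate 3. Without medium replicate 3 both calls were lost, Gk at 0.205 (adjusted p = 0.0677) and Gpd1 at -0.601 (adjusted p = 0.131).

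After USCs medium the enzyme that Angptl4 inhibits and the fatty acid receptor Cd36 were high in 1 library, medium replicate 3. Lpl, lipoprotein lipase, was 8.58, 9.16 and 7.01 CPM in normal, 4.0, 1.80 and 1.16 in aging and 1.95, 1.74 and 11.4 in medium-treated RGCs. Cd36 was 1.21, 2.33 and 1.43, then 0.76, 0.26 and 0.41, then 0.51, 0.30 and 3.79 CPM. For both genes the level in medium replicate 3 was above all 8 other libraries.

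Lpl fell in aging against normal RGCs (-1.84 ± 0.42, adjusted p = 0.000683) and so did Cd36 (-1.80 ± 0.61, adjusted p = 0.0173). The call on Lpl was lost with DESeq2 (adjusted p = 0.0581). That on Cd36 was lost in 6 of 16 alternatives, which were DESeq2 (adjusted p = 0.126), limma on both FPKM scales (0.0801 and 0.11) and the fits without aging replicate 2 (0.084), aging replicate 3 (0.0618) or normal replicate 2 (0.0666). The rise of Lpl after USCs medium (1.12 ± 0.45, adjusted p = 0.038) became a log2 fold change of -0.31 without medium replicate 3 (adjusted p = 0.46). That of Cd36 (1.69 ± 0.63, adjusted p = 0.0243) became -0.21 (adjusted p = 0.796). Of the 4 lipolysis genes tested, 1 rose and 2 fell in aging RGCs and 2 rose and 1 fell after USCs medium, or 1 and 1 without medium replicate 3.

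Many macrophage markers moved with Lpl and Cd36, but Mrc1 and Cd68 did not. Macrophages are known to carry Lpl and Cd36 as well as Fabp4. Of 14 such markers none was at 0 in every library. In aging against normal RGCs 8 of the 11 tested fell and 1, Mrc1, rose, beside 23.0% and 23.6% of all genes. After USCs medium 2 rose and 2, Mrc1 and Cd68, fell, beside 27.1% and 26.0% of all genes. Mrc1 averaged 4.89, 6.83 and 2.76 CPM in normal, aging and medium-treated RGCs, and Cd68 38.6, 41.5 and 31.3 CPM. The 2 that rose, Adgre1 and C1qb, had 2, 2 and 32 and 0, 0 and 15 counts in the medium-treated libraries, and without medium replicate 3 none of the 11 rose and 4 fell. Without Cd68, which was at 28.6 to 43.2 CPM in every library, the 13 others summed to 42.4, 25.0 and 30.8 CPM in normal, 18.2, 10.8 and 11.8 in aging and 7.09, 5.01 and 26.3 in medium-treated RGCs. Adgre1, which encodes F4/80, was 0.11, 0 and 0.05 CPM in aging RGCs and 1.64 in medium replicate 3. Fabp4 was lowest of the medium-treated libraries in that replicate, at 5.28 CPM, and 6.42 and 7.79 in medium replicates 1 and 2. The marker sums of medium replicates 1 and 2 were below those of all aging libraries, an order that leaned on Mrc1. Mrc1 alone was 2.88 and 2.33 CPM of these 2 sums, and 5.84, 7.16 and 7.49 CPM in aging RGCs. Without medium replicate 3 the log2 fold change of Fabp4 against aging RGCs was 2.92. The part of macrophage RNA in the values of Lpl, Cd36 and Fabp4 was not tested.

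**Figure D5:**
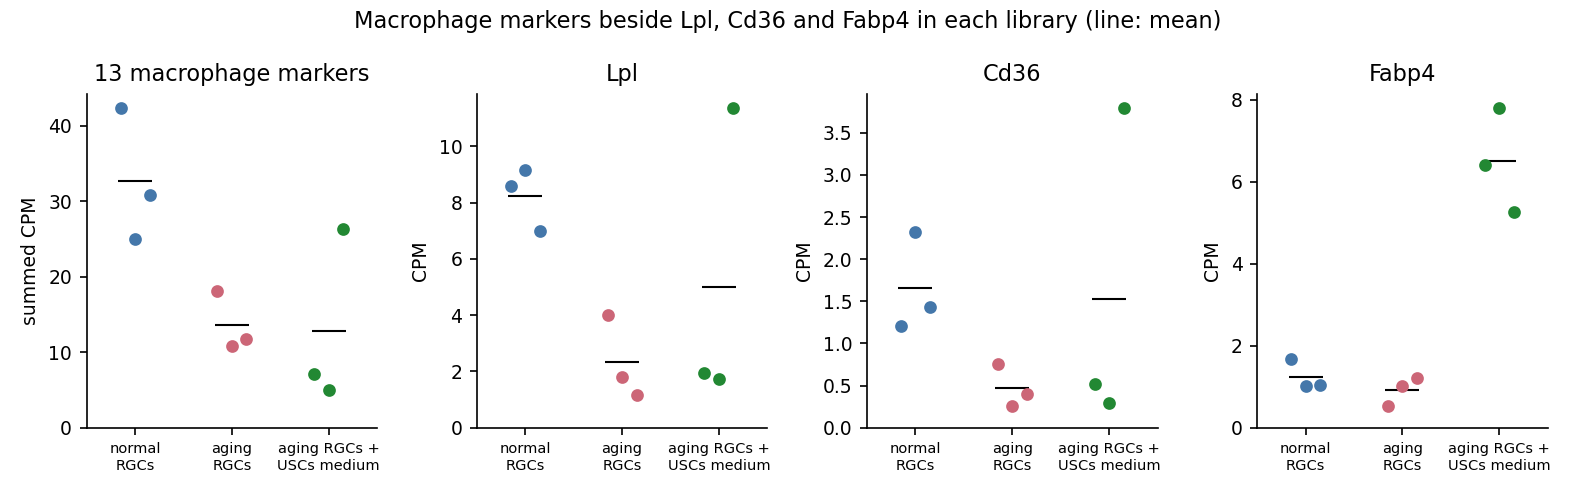
Summed CPM of 13 macrophage markers, and CPM of Lpl, Cd36 and Fabp4, with 1 point per library and a line for the group mean; the axes start at 0. Medium replicate 3 stands at 26.3 for the markers, 11.4 for Lpl and 3.79 for Cd36, above the other medium-treated libraries, and at 5.28 for Fabp4, below them.

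Lists for glucocorticoid and hypoxia responses were set beside Angptl4. Of all genes, 23.6% were called higher and 23.0% lower in aging RGCs, and 27.1% and 26.0% after USCs medium. Of 9 glucocorticoid response genes tested, 1 rose and 6 fell in aging RGCs and all 9 rose after USCs medium with a median log2 fold change of 0.89, while Angptl4 was highest in aging RGCs. Tsc22d3, a textbook glucocorticoid target, had 24.8 to 25.7 CPM in normal RGCs, against 11.7 to 12.8 CPM in the aging group and 41.9 to 46.2 CPM after USCs medium. Of 15 hypoxia response genes, 7 rose and 5 fell in aging RGCs, and 1 rose and 9 fell after USCs medium, with a median of -0.19. The list had no single order of groups. Kdm3a, a histone demethylase induced by hypoxia, averaged 138, 184 and 110 CPM in normal, aging and medium-treated RGCs, and Egln3, which marks HIF for decay, 129, 142 and 85.6 CPM, both highest in aging RGCs like Angptl4. Vegfa, by contrast, averaged 345, 220.0 and 208 CPM, highest in normal RGCs. The part of either response in the levels of Angptl4 and Fabp4 was not tested.

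Over the 9 libraries, the genes whose log2 CPM was most like that of Angptl4, among 601 with group means at least 1 apart on the log2 scale, were Slc2a6, Atp13a4, Msra, 2610528A11Rik and Spink2, with Pearson correlations of 0.93, 0.92, 0.92, 0.91 and 0.90. Those most like Fabp4 were Gfpt2, Per1, Sbno2, Socs3 and B3galnt2, with correlations of 0.98, 0.97, 0.97, 0.97 and 0.96. These correlations describe 3 groups of 3 libraries and mostly follow the group means. Per1 is a member of the glucocorticoid list and stood at 45.1, 36.5 and 74.9 CPM on average in normal, aging and medium-treated RGCs, and Socs3, a feedback inhibitor of STAT3, at 35.9, 26.4 and 95.6. Msra and B3galnt2 overlap genes on the other strand, so their reads may be shared.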

How the data were processed

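RNA sequencing values of 9 libraries were analysed, 3 from each group, with groups taken from the labels. The authors deposited for each gene and library an expected count, an estimated and unnormalized number of reads, and an FPKM value, for which reads are divided by transcript length and library total. The mRNA was enriched by oligo(dT). The submitters' processing notes name mm10. The aligner, counting program and use of strand were not given in the sources used here. No label ties a library to a separate passage or day, so p-values measure the spread between these cultures, which may be technical.

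Expected counts were rounded (decimals stood in 6.92% to 7.38% of the values per library) and scaled to CPM with TMM factors (0.956 to 1.03). Squared differences between replicates averaged 2.21 to 4.94 times the variance of counting noise, and none were counted as duplicates. edgeR 4.0.16 in R 4.3.3 kept 12145 of 22322 genes by filterByExpr, fitted group means over 9 libraries together (6 residual degrees of freedom) and tested contrasts by the quasi-likelihood F test. The SE of a log2 fold change was its size divided by the square root of F. The script was tested on simulated data. Coordinates are from GENCODE M21 on GRCm38 and promoters from RefSeq.

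The 10 genes, the gene lists, the tests and the alternatives were chosen with earlier results of these data known. The lists were receptor partners and cofactors, other fatty acid binding proteins, other angiopoietin-like proteins, lipoprotein lipolysis, fatty acid uptake and activation, mitochondrial fatty acid oxidation, peroxisomal and omega oxidation, other lipid droplet proteins, pyruvate dehydrogenase switch, desaturation and NADPH supply, and glycerol handling, with 2 lists of glucocorticoid and hypoxia responses, lists of cell type markers, and the KEGG pathway in the deposited annotation. Named from a list were, per comparison, up to 4 genes with an adjusted p under 0.05, a log2 fold change of 1 or more in size and an average log2 CPM of at least 0, or up to 2 by size where there was none with such a change. Other genes were named where a sentence needed them, after their values were seen.

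Other settings tried were the edgeR likelihood ratio test, DESeq2 1.42.0 and its size factors, library totals without TMM factors, upper-quartile scaling, all genes with a count, genes of 1 CPM in 3 libraries, a fit of the 6 libraries compared alone, the replicate number as a block, limma 3.58.1 on log2(FPKM + 1) and log2(FPKM + 0.1), which understates the change of low genes, and each library left out in turn.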

Additional observations from a re-analysis of the deposited data

How the results depend on the processing

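Of 336 alternative values for the log2 fold changes of the 7 tested genes, 319 kept their direction and their side of the threshold, 9 fell short of it, 1 passed it and 7 changed sign. The sign changes were in fold changes near 0. That of Ppard after USCs medium against aging RGCs was -0.025 and -0.024 with limma on log2(FPKM + 0.1) and log2(FPKM + 1), -0.066 without TMM factors, -0.017 with upper-quartile factors, -0.009 without aging replicate 3 and -0.005 without medium replicate 2, and up to 0.051 with other libraries left out. That of Pparg in aging against normal RGCs was -0.029 without normal replicate 2 and up to 0.185 without another library. The fold change of Angptl4 in medium-treated against normal RGCs ranged from 0.09 to 0.53, with the lowest value without normal replicate 1, and its 9 values short of the threshold came from DESeq2, both limma fits, no TMM factors, upper-quartile factors and the fits without medium replicates 1 or 2 or normal replicates 1 or 3. Pparg after USCs medium passed only without TMM factors, at -0.31. Over all alternatives Angptl4 ranged from 1.46 to 1.90 in aging against normal RGCs and from -1.45 to -1.33 after USCs medium, Fabp4 from 1.96 to 3.03 and Cpt1a from -1.64 to -1.52.

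The counts of pathway genes that rose and fell were within 1.5 times those reported, except with a log2 fold change of at least 1 asked for, which by construction left 0 risen and 4 fallen in aging against normal RGCs, 3 and 7 after USCs medium against aging RGCs, and 1 and 6 against normal RGCs. With 1 library left out, 23 to 25 rose and 15 to 19 fell in aging against normal RGCs, 16 to 22 rose and 34 to 37 fell after USCs medium against aging RGCs, and 17 to 18 rose and 35 to 39 fell against normal RGCs. Without TMM factors the median log2 fold change of all genes in medium-treated against normal RGCs moved from -0.0127 to -0.113, and the cause was not tested. Of 781 alternative values of named pathway genes, added after the values were seen, 725 kept their call, 54 lost it and 2 changed sign, Lpl and Cd36 after USCs medium, which with 1 library left out ranged from -0.315 to 1.754 and from -0.209 to 2.186, with the lowest values without medium replicate 3.

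Replicate numbers were shared between groups, but libraries of the same number did not deviate together (correlations of -0.07 to 0.081). With the replicate number as a block, 24 pathway genes rose and 19 fell in aging against normal RGCs, 21 rose and 41 fell after USCs medium against aging RGCs, and 18 rose and 37 fell against normal RGCs. Pairing by the block changed no call on the 7 genes, and of the named pathway genes it changed that on Lpl after USCs medium (1.00, adjusted p = 0.0684, with a range over all alternatives of 5.15e-09 to 0.591).

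The depth of 18189616 to 22342288 counts a library left Fabp3, Pdk4 and Ppara, with 27, 3 and 34 counts over all 9 libraries, below a level at which groups could be compared, and Fabp4 rests on 54 counts in aging RGCs.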
